A study of Caenorhabditis elegans with 6 samples.

Results

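The genes described here encode the replacement histone H3.3 (his-69, his-70, his-71, his-72 and his-74), the histone variant H2A.Z (htz-1) and linker histones (his-24, hil-2, hil-3 and hil-4) of Caenorhabditis elegans. They were chosen by name, and all 10 were found among the 21882 genes of the deposited count table. Their RNA was measured in coelomocytes, the scavenger cells of the body cavity, isolated from dissociated L3 larvae by their fluorescence, then sequenced as polyadenylated RNA in 6 libraries. The 3 control libraries came from strain BAT2087, which carries barIs177 (GFP under the unc-122 promoter, active in coelomocytes) and glp-4(bn2). The 3 CHE-1 libraries came from strain BAT2088, which carries the same reporter and allele and also barIs115, a transgene with FLAG-tagged che-1 under the same promoter and the unc-54 3' UTR, beside mCherry under the myo-2 promoter. CHE-1 is a zinc finger protein needed for the fate of the ASE taste neurons, and the comparison asks how coelomocytes that express it differ from those that do not. The allele glp-4(bn2) is temperature-sensitive and impairs the germline, and all animals were grown at its restrictive temperature. Each library came from a population of animals, and the labels name 1 strain per group, so a difference between the strains other than barIs115 cannot be told apart from its effect.

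Nucleosomes wrap DNA around H3, H4, H2A and H2B. Canonical histones are made mainly in S phase from clustered genes whose transcripts mostly lack a poly(A) tail, whereas replacement variants are made outside S phase, from polyadenylated transcripts, and enter chromatin without DNA replication. H3.3 accumulates in active and in long-lived non-dividing chromatin, H2A.Z marks nucleosomes near promoters, and linker histones (the H1 family) bind the DNA where it enters and leaves the nucleosome and favour compaction. Larval coelomocytes do not divide.

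The genes lie on 4 chromosomes of the build WBcel235. The H3.3 genes his-69 (III, 4058360 to 4058743) and his-70 (III, 4059715 to 4060119) are neighbours on the minus strand, 971 bases apart. Each is annotated as a single exon with 0 exonic bases beyond the coding sequence and its stop codon. The other H3.3 genes are his-72 (III, 12367475 to 12369050), his-71 (X, 7981382 to 7982070) and his-74 (V, 12659704 to 12660330). Their coding transcripts have 3, 3 and 2 exons, with 182, 180 and 169 exonic bases outside the coding sequence. The annotated proteins of his-71 and his-74 have 136 residues, that of his-70 has 134 and that of his-69 has 127. The gene his-72 has 2 annotated transcripts, which code for 136 and 151 residues. The only H2A.Z gene on the list, htz-1 (IV, 4446216 to 4446999), codes for 140 residues. Among the linker histone genes, his-24 (X, 14490094 to 14491119) and hil-3 (X, 8159169 to 8160084) each code for 208 residues. The gene hil-2 (IV, 6294240 to 6295217) codes for up to 191 and hil-4 (V, 4754313 to 4755453) for 253. Exons of his-24 overlap those of M163.16 and M163.19, which are annotated as noncoding RNAs on the opposite strand, and although the libraries were strand-specific, no source says whether the counting was. A snoRNA lies within his-72 and a microRNA within hil-2, neither in an exon. The proteins within a class resemble each other, and how reads shared between genes were split upstream was not examined.

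The libraries held 21353072 to 58325279 counts. The shallowest were control library 2 (23062805) and CHE-1 library 1 (21353072), in which 25.7% and 20.8% of the tested genes had no count, against 1.76% to 11.8% in the others. Levels below are TMM-scaled CPM (counts scaled to a common library size), and a positive log2 fold change means more with CHE-1. All 6 coelomocyte markers were detected, with summed levels of 12157 to 15834 CPM without and 4301 to 6196 CPM with CHE-1, and 3 of them were lower. The 7 neuronal markers summed to 243.2 to 409.6 CPM without and 4930 to 5608 CPM with CHE-1, with 5 higher. The 5 ASE markers went from 0 to 8.16 CPM to 2074 to 2400 CPM, with 4 higher. One of these is che-1 itself, at 486.8 to 808.7 CPM in CHE-1 libraries, whose strain carries it as a transgene. Transcripts of the transgene and of the endogenous che-1 gene were not told apart. Markers of other tissues were present too: body wall muscle (6 of 6, 35906 to 37674 CPM in control and 16180 to 23866 CPM in CHE-1), hypodermis (5 of 6, 95.3 to 128.4 and 71.1 to 124.6 CPM, bli-1 at 0), pharynx (5 of 5, 48.5 to 491.4 and 28.5 to 97.9 CPM) and germline (6 of 7, 26.1 to 33.1 and 35.6 to 69.6 CPM, nos-2 at 0). Of 6 sperm markers, 4 were at 0 in every library and the sum stayed at or below 0.466 CPM. The muscle sum was mostly unc-54, the 1 muscle marker called lower. This gene alone averaged 35947 CPM in the control libraries, against 19987 CPM where CHE-1 was expressed. Averages of the remaining muscle markers ran from 85.8 (unc-89) to 377.2 CPM (unc-15) in the control libraries. Where CHE-1 was expressed they ran from 112.5 (unc-27) to 526.7 CPM (unc-15), so the lower muscle sum reflects unc-54. The fitted log2 fold change was upward for myo-3 (0.71), unc-15 (0.48), unc-22 (0.92) and unc-89 (0.93) and downward for unc-27 (-0.03). None of these was called in edgeR's quasi-likelihood test, while edgeR with adjusted deviances also called unc-89. The transgene barIs115 of the CHE-1 strain carries the unc-54 3' UTR, and the control strain, where unc-54 was higher, lacks that transgene. The part of the transgenes of either strain in the unc-54 counts was not tested. Fewer cells of a type and less RNA per cell cannot be told apart in such bulk samples, and the part of these tissues in the values below was not tested except where a value is given.

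Of the 10 genes, 8 had counts and 8 passed the filter on low counts, and none of these was called different at an adjusted p under 0.05 in edgeR's quasi-likelihood test (0 of 8), against 5.06% of all 9112 genes tested (3.37% higher and 1.69% lower). At an unadjusted p under 0.05 there were 3 (his-72, hil-2 and hil-3), all upward, against 14.2% of all genes in either direction and 8.53% upward. The fitted change was upward for 7 genes and downward for htz-1, against 51.8% upward over all genes. The 8 genes had a median log2 fold change of 0.73, against 0.04 over all tested genes. Each of 3 other fits called 1 of the 8 genes higher and 0 lower, a different gene in each. DESeq2 called 6.90% of all its genes higher and 4.16% lower, limma-voom called 5.06% and 2.93%. With adjusted deviances edgeR called 7.63% and 3.88%.

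**Figure D1:**
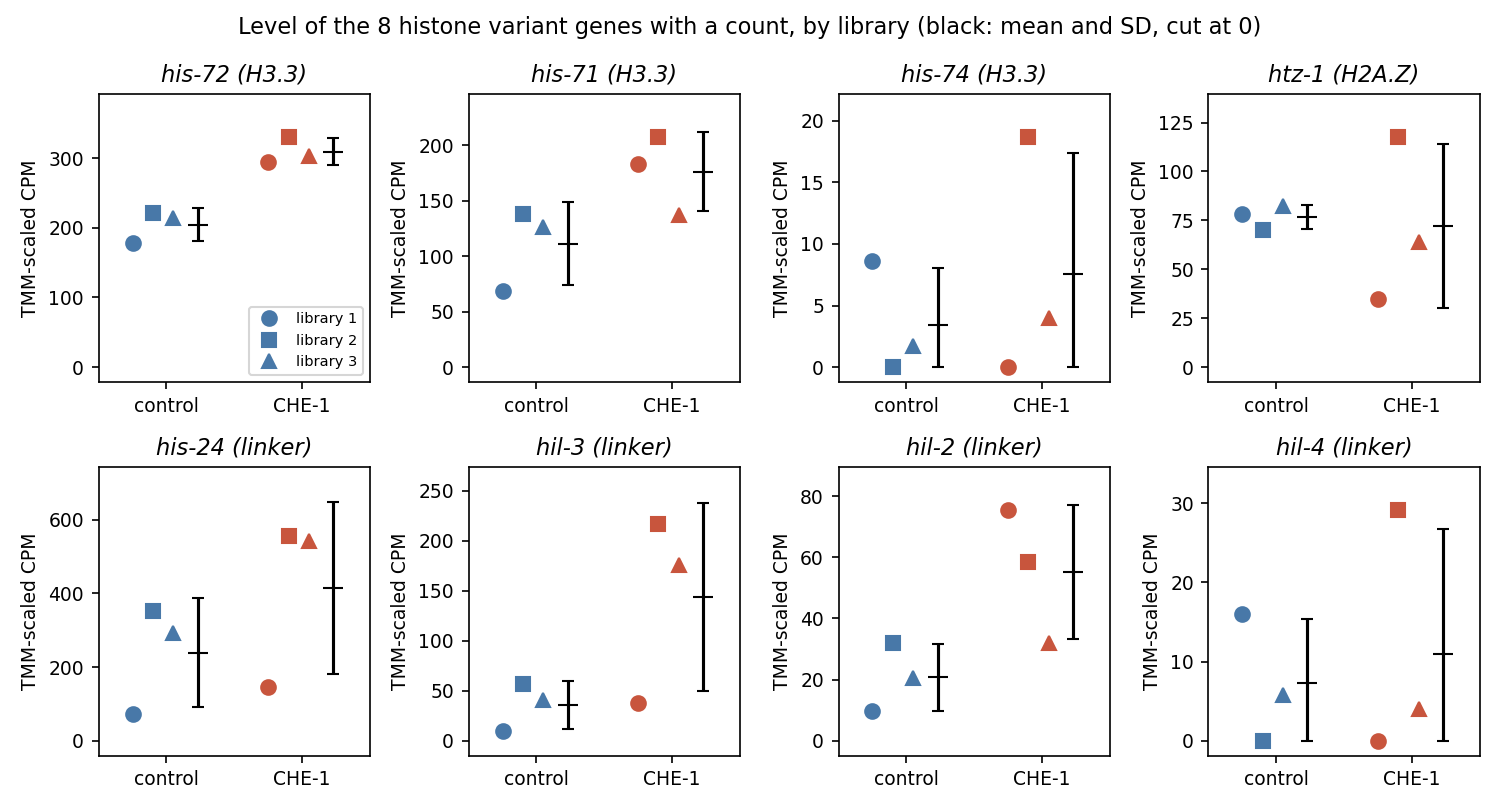
Level of each of the 8 genes with a count, in TMM-scaled CPM on a linear axis, in the 3 control (blue) and 3 CHE-1 (red) libraries. Marker shape gives the library number, and the labels state no pairing by it. The black bar is the mean with 1 SD, cut at 0. For his-72 the CHE-1 libraries sit between 294.8 and 330.4 CPM, all above the control libraries, while for htz-1 and his-24 the groups overlap.

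Transcripts of his-72 were the most even of the H3.3 genes. They stood at 178.0, 220.9 and 214.6 CPM in control libraries 1 to 3 and at 294.8, 330.4 and 302.7 CPM in CHE-1 libraries 1 to 3. Every CHE-1 library was above every control library, and this held with each of the 3 scalings tried. Such a separation upward was seen for his-72 and hil-2, that is 2 of the 8, against 13.0% of all tested genes. The group means of his-72 were 204.5 ± 23.1 and 309.3 ± 18.7 CPM (SD, n = 3 each). The fitted log2 fold change of 0.60 (SE 0.20, 95% interval 0.15 to 1.05) corresponds to a 1.51-fold higher level and did not pass after adjustment (adjusted p = 0.162 in edgeR, 0.0253 in DESeq2, 0.0890 in limma-voom). DESeq2 called 11.1% of the genes for which it gave an adjusted p. Over 14 alternatives the adjusted p of his-72 ran from 0.0253 to 0.648.

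The other abundant H3.3 gene, his-71, had a similar fitted change with more spread. Its level was 68.8, 138.4 and 126.6 CPM in the control libraries and 183.2, 207.5 and 137.3 CPM with CHE-1. The groups met at CHE-1 library 3, which lay just below control library 2, and control library 1 was the lowest of all. The log2 fold change was 0.66 (SE 0.31, 95% interval -0.02 to 1.34, adjusted p = 0.375 in edgeR). Without control library 1 it was 0.36, the lowest of the alternatives.

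The remaining H3.3 genes were rare or undetected. The gene his-74 had 439, 0 and 93 counts in control libraries 1 to 3, against 0, 1177 and 209 with CHE-1. Both libraries at 0 were the shallowest of their group, where a floor of 3 counts corresponds to 0.126 and 0.136 CPM, and 10.3% of all tested genes were at 0 in both. In the libraries with counts the level ran from 1.73 to 18.7 CPM. The 95% interval of its log2 fold change of 1.13 reached from -4.75 to 7.01, so no direction could be told at this spread (adjusted p = 0.998 in edgeR). The genes his-69 and his-70 had a count of 0 in every library, which at the floor of 3 counts allows up to 0.0476 to 0.136 CPM per library, counting error only.

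Summed over the class, H3.3 transcripts stood at 255.5, 359.3 and 342.9 CPM in the control libraries and at 478.0, 556.7 and 443.9 CPM with CHE-1. The means were 319.2 ± 55.8 and 492.8 ± 57.8 CPM, and no test was made of the sums. The lowest CHE-1 library exceeded the highest control library, a separation that 13.0% of all tested genes showed singly. Most of the sum was his-72, which was itself separate and held on average 64.6% of these counts in control and 63.1% in CHE-1 libraries. For his-71 and his-74 the groups overlapped. Canonical H3 gave far fewer counts in these polyadenylated libraries: 13 of 15 listed genes had a row, 8 were detected and 2 passed the filter, and together they summed to 4.81 to 30.5 CPM in control and 12.0 to 17.9 CPM with CHE-1. H3.3 genes therefore held 92.2% to 98.6% of all H3 counts in control and 96.4% to 97.7% in CHE-1 libraries. Because canonical transcripts mostly lack a poly(A) tail, these are shares of polyadenylated H3 transcripts and not of H3 mRNA or protein. Of the canonical genes tested, edgeR called 0 of 2 for H3 and 0 of 4 for H2A, with 0 at an unadjusted p under 0.05. DESeq2 called 1 of 4 for H3 (his-59). Over all genes edgeR called 5.06% (14.2% at an unadjusted p under 0.05) and DESeq2 11.1%. The gene his-59 did not pass edgeR's filter. It was at 0, 14.6 and 0.578 CPM in control libraries 1 to 3 and at 0 in each CHE-1 library, so its counts came mostly from 1 shallow library.

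H2A.Z was close in the groups on average but not in its spread. The gene htz-1 was at 78.1, 70.3 and 82.4 CPM in the control libraries and at 34.8, 117.7 and 63.8 CPM with CHE-1. The control libraries lay within a 1.17-fold range, whereas CHE-1 library 2 was 3.38 times CHE-1 library 1, and the control values fell inside the range of the CHE-1 values. The means were 76.9 ± 6.17 and 72.1 ± 42.1 CPM. The log2 fold change of -0.09 (SE 0.41, adjusted p = 0.998 in edgeR) had a 95% interval of -1.0 to 0.81, so a change of up to 1.76-fold upward or to 0.501 of the control level lies within it. Its sign turned with library totals as the only scaling (0.09), with adjusted deviances (0.01), without CHE-1 library 1 (0.24) and without both shallowest libraries (0.11). Of 17 listed canonical H2A genes 12 had a row, 8 were detected and 4 passed the filter. With these added, htz-1 held 29.9% to 32.9% of the H2A counts in control and 13.3% to 41.5% in CHE-1 libraries. As for H3, these are shares of polyadenylated transcripts and not of H2A mRNA or protein. Nearly all other counts of that class came from his-35, an H2A gene at 162.8 ± 13.0 CPM in control and 164.4 ± 52.3 CPM with CHE-1 (log2 fold change 0.01, adjusted p = 0.998 in edgeR).

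The linker histone gene his-24, which encodes the H1.1 isoform, had the highest mean level of its class in both groups, with a wide spread. It stood at 72.7, 352.2 and 293.1 CPM in the control libraries and at 145.3, 555.2 and 541.8 CPM with CHE-1. Control library 1 and CHE-1 library 1 were far below the others of their group, with a 4.85-fold range in control and a 3.82-fold range in CHE-1 libraries. The log2 fold change was 0.79 (SE 0.73, 95% interval -0.99 to 2.57, adjusted p = 0.922 in edgeR). It was 0.31 without control library 1, 1.20 without CHE-1 library 1 and 1.50 without both shallowest libraries. Over 14 alternatives, which include a fit that blocks on consecutive library names, its adjusted p ran from 0.0114 to 1.00.

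The gene hil-3, another H1 isoform, followed his-24 from library to library but at a higher proportion in CHE-1 coelomocytes. It was at 10.0, 57.3 and 40.8 CPM in the control libraries and at 37.8, 217.4 and 175.9 CPM with CHE-1. CHE-1 library 1 was below control libraries 2 and 3, so the groups overlapped, while CHE-1 libraries 2 and 3 were above all others. The log2 fold change was 2.00 (SE 0.82, 95% interval 0.04 to 3.96, adjusted p = 0.334 in edgeR). With limma-voom, which called 7.99% of all genes, hil-3 was higher (log2 fold change 2.50, adjusted p = 0.00527). Over the same 14 alternatives its log2 fold change stayed between 1.51 and 2.87 and its adjusted p between 0.00109 and 0.621.

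A ratio of hil-3 to his-24 within each library, chosen after the values were seen, is free of the scaling. It was 0.138, 0.163 and 0.139 in the control libraries, against 0.260, 0.392 and 0.325 with CHE-1, with means of 0.147 ± 0.0139 and 0.325 ± 0.0657. The groups did not overlap. Of 3 ratios computed, hil-3 to his-24 had a two-sided exact permutation p of 0.1, the smallest that 3 against 3 libraries can give, his-71 to his-72 had 0.6 and hil-2 to his-24 had 0.7. As the pair was picked from its values, its p is a description.

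Markers of the intestine differed between libraries in a similar order. Their sum, over 6 of 6 markers with a count, was 220.3, 303.5 and 292.3 CPM in the control libraries and 211.9, 876.9 and 636.4 CPM with CHE-1, so that CHE-1 libraries 2 and 3 were highest, as for his-24 and hil-3. Most of the sum came from the protease gene asp-1 and the actin gene act-5, neither of which passed (adjusted p = 0.444 and 0.209 in edgeR), although edgeR with adjusted deviances called act-5 higher. The defining regulator elt-2 was at or below 2.81 CPM, elt-7 at or below 0.522 CPM and the esterase gene ges-1 at or below 3.93 CPM in every library. The germline marker sum was likewise highest in CHE-1 libraries 2 and 3. It was 33.1, 29.3 and 26.1 CPM in the control libraries, where library 1 was highest, and 35.6, 69.6 and 50.0 CPM with CHE-1. Its member glh-2 had another order, at 1.45, 0 and 0 CPM in the control libraries and 23.2, 18.5 and 10.4 CPM with CHE-1. That gene did not pass in edgeR's quasi-likelihood test (adjusted p = 0.357), although edgeR with adjusted deviances called it. The part of RNA from either tissue in the values of his-24 and hil-3 was not tested.

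**Figure D2:**
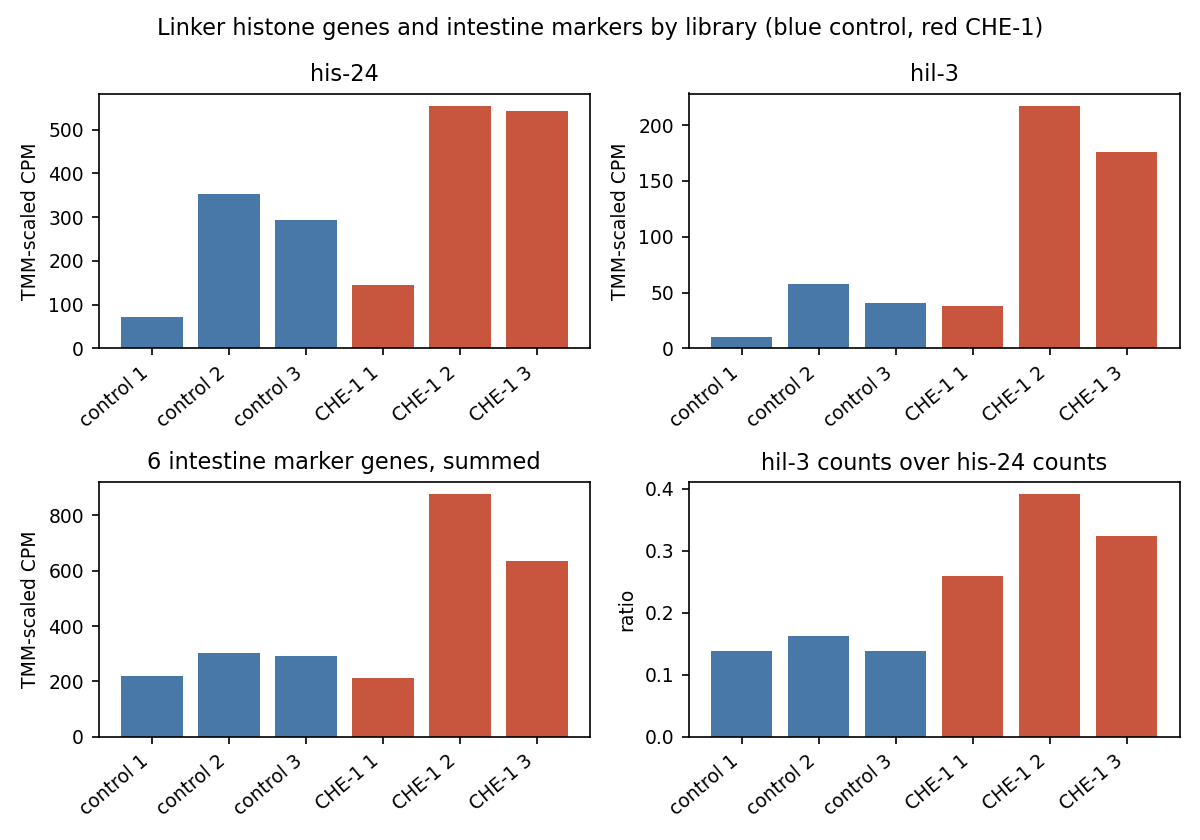
Levels of his-24 and hil-3 and the summed level of 6 intestine markers in TMM-scaled CPM, and the ratio of hil-3 to his-24 counts, as 1 bar per library (blue control, red CHE-1). The first 3 panels are highest in CHE-1 libraries 2 and 3, and the ratio is above 0.25 in the CHE-1 libraries and below 0.17 in the controls.

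The H1 gene hil-2 had its highest level in the shallow CHE-1 library 1, unlike his-24 and hil-3. It was at 9.78, 31.9 and 20.4 CPM in the control libraries and at 75.4, 58.5 and 31.9 CPM with CHE-1. With TMM the lowest CHE-1 value (31.93) barely exceeded the highest control value (31.88), and with DESeq2 size factors the groups overlapped (31.65 against 33.54). The log2 fold change was 1.42 (SE 0.53, 95% interval 0.25 to 2.58, adjusted p = 0.215 in edgeR). It was called higher by edgeR with adjusted deviances, which called 11.5% of all genes (log2 fold change 1.48, adjusted p = 0.0339), and its adjusted p over all alternatives ran from 0.0339 to 0.535. The last of the chosen linker genes, hil-4, had 816, 0 and 310 counts in control libraries 1 to 3, against 0, 1831 and 207 with CHE-1. Like his-74 it was at 0 in the shallowest library of each group and highest in control library 1 and CHE-1 library 2. Its log2 fold change of 0.60 had a 95% interval of -4.47 to 5.67 and turned downward without control library 2 (-0.04) or CHE-1 library 2 (-1.88).

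**Figure D3:**
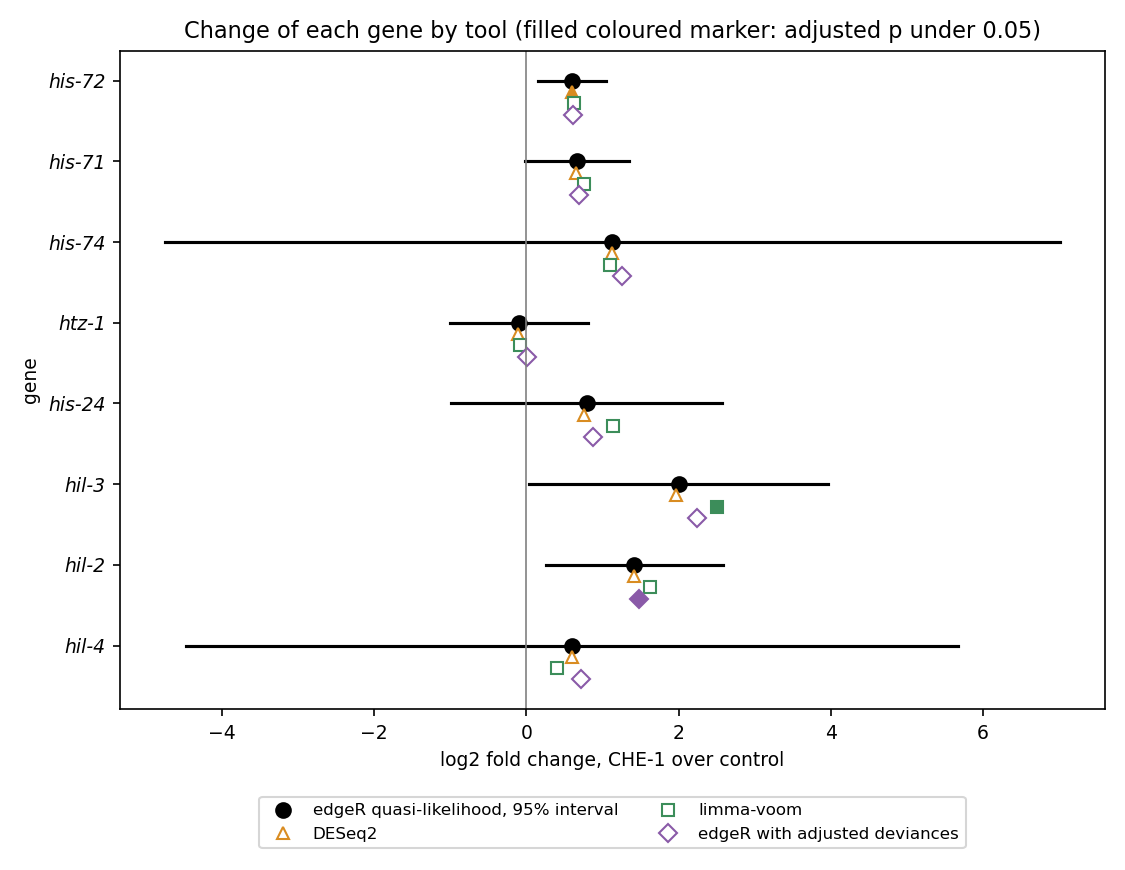
Log2 fold change of CHE-1 over control for the 8 genes with counts. Black points and lines are edgeR's quasi-likelihood estimate with its 95% interval, and coloured markers are the other tools, filled where the adjusted p is under 0.05. Intervals are narrowest for his-72 (0.15 to 1.05) and widest for his-74 (-4.75 to 7.01), and the filled markers are his-72 in DESeq2, hil-3 in limma-voom and hil-2 in edgeR with adjusted deviances.

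Within H3.3 the share of each gene overlapped between the groups. The share of his-72 in the H3.3 counts was 69.7%, 61.5% and 62.6% in the control and 61.7%, 59.4% and 68.2% in the CHE-1 libraries, with means of 64.6% ± 4.45 and 63.1% ± 4.57. The share of his-71 was 34.1% ± 6.27 and 35.5% ± 4.01, and that of his-74 1.29% ± 1.82 and 1.42% ± 1.74. These shares overlapped between the groups (exact permutation p = 0.6, 0.7 and 1, two-sided). The linker class here holds only the 4 chosen genes. Its shares and totals leave out hil-1, hil-5 and hil-7, which also had counts. Of these, hil-7 averaged 22.9 CPM in control and 25.7 CPM with CHE-1. Within the 4 chosen linker genes his-24 held 67.0%, 79.8% and 81.4% in the control and 56.2%, 64.5% and 71.9% in the CHE-1 libraries. Its share in CHE-1 library 3 was above that in control library 1 (exact permutation p = 0.2). The share of hil-3 was 9.25%, 13.0% and 11.3% in the control and 14.6%, 25.3% and 23.3% in the CHE-1 libraries. Those groups did not overlap, and the p of 0.1 is the smallest the design allows. Its mean share was 11.2% ± 1.87 and 21.1% ± 5.68, with an exact permutation p of 0.7 after Benjamini-Hochberg adjustment over the 7 shares compared. The share of hil-2 was 5.67% to 9.01% in control and 29.2%, 6.80% and 4.24% in CHE-1 libraries, so that CHE-1 library 1 set its mean (exact permutation p = 0.9). The share of hil-4 was 0% to 14.8% in control and 0% to 3.38% in CHE-1 libraries (exact permutation p = 0.7). Shares of 1 class sum to the whole and are not independent.

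**Figure D4:**
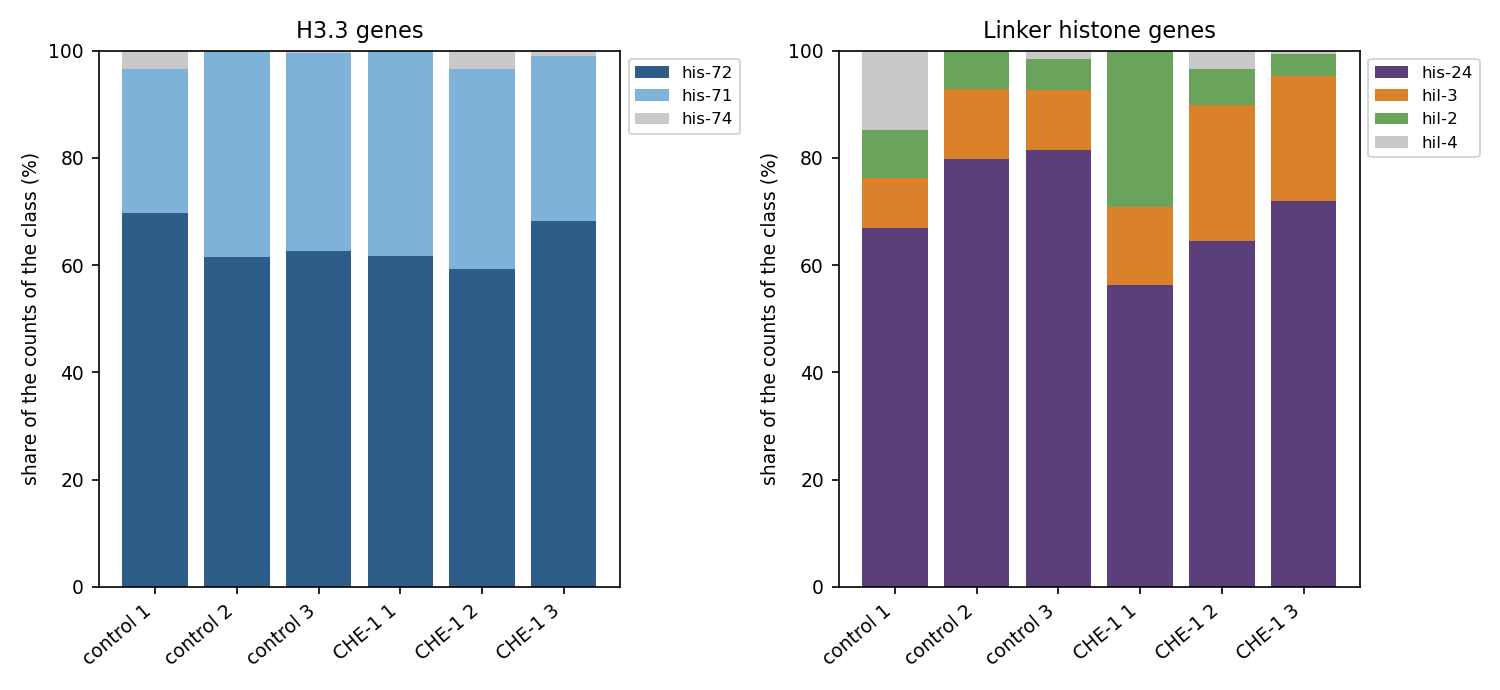
Share of the counts of each class held by each gene, in percent, as 1 stacked bar per library, for H3.3 (left) and the 4 chosen linker histone genes (right). The split between his-72 and his-71 is alike in both groups, hil-3 holds 9.25% to 13.0% in control and 14.6% to 25.3% in CHE-1 libraries, and hil-2 holds 29.2% in CHE-1 library 1.

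Per kilobase of exon, the order of the levels in control coelomocytes was his-72 (320.5 ± 36.3 CPM per kb), his-24 (259.3 ± 159.6), his-71 (188.3 ± 63.0), htz-1 (104.8 ± 8.40), hil-3 (41.8 ± 27.8), hil-2 (27.4 ± 14.6), hil-4 (7.61 ± 8.50) and his-74 (5.95 ± 7.86). Between neighbours in this order, the ranges over the 3 libraries were separate for his-71 and htz-1 and for htz-1 and hil-3, and overlapped for the other 5 pairs. In CHE-1 coelomocytes his-72 (484.8 ± 29.4 CPM per kb), his-24 (448.7 ± 252.3) and his-71 (297.8 ± 60.4) again came first. The next were hil-3 (166.9 ± 109.2) and htz-1 (98.3 ± 57.3), in the reverse of their control order but with overlapping ranges. The gene hil-2 followed at 73.1 ± 29.0 CPM per kb, above the range of his-74 (13.0 ± 17.0) and hil-4 (11.5 ± 16.5). The median tested gene stood at 11.0 CPM per kb in control and 11.7 in CHE-1 libraries, and 96.9% and 97.6% of the tested genes were below his-72.

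Genes that place these variants or act beside them gave 0 calls in edgeR's quasi-likelihood test, and 0 at an unadjusted p under 0.05, in each of 6 lists. Over all genes tested, the shares in that test were 5.06% and 14.2%. DESeq2, limma-voom and the fit with adjusted deviances also called 0 of the listed genes, against 11.1%, 7.99% and 11.5% of all genes. The lists had 1 to 13 tested genes each. Lists this short can hold 0 calls at such shares, so 0 does not show that they are unchanged. Of 7 other centromeric, sperm and linker histone genes, 5 were tested (median log2 fold change 0.60). The linker gene hil-7 was at 22.9 ± 23.2 CPM in control and 25.7 ± 21.2 CPM with CHE-1 and the CENP-A gene hcp-3 at 5.41 ± 8.06 and 9.31 ± 8.86 CPM. The sperm H2A gene htas-1 and hil-6 were at 0 in every library. Of 4 H3.3 deposition genes, 3 were tested (median -0.51), among them the ATRX homologue xnp-1 at 118.9 ± 111.4 and 83.4 ± 53.9 CPM and the Asf1 homologue unc-85 at 23.4 ± 6.28 and 7.43 ± 12.6 CPM. The second Asf1 homologue, asfl-1, was at 0 throughout. For H2A.Z deposition, 8 of 9 genes of a SWR1 and TIP60 type complex were tested (median 0.03). Its most abundant members were the SWR1-type ATPase gene ssl-1 at 377.5 ± 27.1 and 404.9 ± 69.8 CPM and the Enhancer of Polycomb homologue epc-1 at 380.4 ± 56.8 and 367.5 ± 26.5 CPM. The 5 genes listed under linker histone binding or modification had a median of -0.20. Among them were the methyltransferase gene met-2 at 80.0 ± 24.6 and 59.3 ± 9.44 CPM and the sirtuin gene sir-2.1 at 42.1 ± 13.9 and 43.7 ± 25.7 CPM. Whether the listed genes act on linker histones was not tested. The 13 DNA replication genes had a median of 0.40, with the ribonucleotide reductase genes rnr-2 at 27.2 ± 15.7 and 29.2 ± 5.21 CPM and rnr-1 at 15.6 ± 18.8 and 21.7 ± 6.35 CPM. The histone stem-loop binding protein gene cdl-1 was at 5.66 ± 1.78 and 8.23 ± 2.68 CPM. All tested genes had a median of 0.04.

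The genes most like the most abundant gene of each class were found by Pearson's r of log2(CPM + 1) over the 6 libraries, among 9111 other tested genes, as a description. Those most like his-72 were ttyh-1 (r = 0.995), nrsn-1 (0.991) and F42C5.9 (0.991), all higher in each CHE-1 library than in each control library. Those most like htz-1 were Y39A1A.24 (0.993), ech-6 (0.988) and spr-5 (0.987), with the lowest value in CHE-1 library 1 and the highest in CHE-1 library 2. Those most like his-24 were snpc-4 (0.980), larp-5 (0.976) and ace-2 (0.970), and hil-3 ranked number 21 of all genes (0.944). For his-72, his-71 ranked number 465 (0.876). The libraries share group and depth.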

How the data were processed

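Polyadenylated RNA of sorted coelomocytes was compared between 3 control and 3 CHE-1 libraries. The authors deposited estimated counts per gene, already whole numbers, and a normalized signal, which is the estimated count over a single factor for each library, judged from the values. Only the estimated counts were tested. The submitters' processing notes list Salmon 0.13.1, DESeq2 and WBcel235, with no role for any. No source used here says how transcripts were summed. Symbols and coordinates came from Ensembl release 115, which holds 21714 of the 21882 identifiers, and RefSeq positions on WBcel235 gave separate names to 52 of 53 identifiers that shared a symbol.

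All genes were fitted together with edgeR 4.0.16 in R 4.3.3 (robust glmQLFit and glmQLFTest, two-sided, TMM factors, filterByExpr with minimum count 10 and minimum total 15) and Benjamini-Hochberg adjustment. The standard error is the absolute log2 fold change divided by the square root of F, and intervals at 95% use the test's degrees of freedom, so both are approximate. Alternatives were DESeq2 1.42.0, limma 3.58.1 (voom), adjusted deviances, other scaling, no count filter, leaving out libraries and a block by consecutive library names. Shares were compared by exact permutation tests over libraries. Levels per kb divide CPM by the union of annotated exons. The labels give no separate cultures or sorts, so the spread behind each p-value may be technical. The lowest chi-square per degree of freedom between libraries of 1 group was 207, so none was counted as a repeat of another. The genes named are the 10 chosen genes, the 2 most abundant of each list with any that passed, and the 3 most correlated genes per class. The members and lists were chosen with earlier results of these data known. Other genes named (his-35, his-59, unc-54, che-1, asp-1, act-5, elt-2, elt-7, ges-1, glh-2 and genes at 0) were added after their values were seen.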

Additional observations from a re-analysis of the deposited data

How the results depend on the processing

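Over all genes, 307 were higher and 154 lower. Without a count filter the numbers were 474 and 255, with DESeq2 682 and 411, with limma-voom 461 and 267, and with adjusted deviances 695 and 354. Leaving out 1 library gave 234 to 347 higher and 113 to 179 lower. Of the genes described here 0 were called, with 1 each in DESeq2, limma-voom and adjusted deviances (his-72, hil-3 and hil-2), and 0 whichever library was left out. Why the tools differ was not tested. Library totals as the only scaling moved the median log2 fold change of all genes from 0.04 to 0.21. The direction of htz-1 turned with library totals (0.089), adjusted deviances (0.010), without CHE-1 library 1 (0.24; range without 1 library -0.64 to 0.24) and with both shallowest libraries left out, a choice made after seeing the data (0.11). The log2 fold change of his-74 ran from -0.79 to 3.03 and of hil-4 from -1.88 to 1.84 over the fits that omit 1 library. Over the same omissions, differences in shares, in percentage points, ran from -4.07 to 1.04 for his-72, -2.20 to 3.68 for his-71, -0.844 to 1.17 for his-74, -1.79 to 10.7 for hil-2 (-1.82 without the shallowest libraries) and -6.88 to 0.50 for hil-4. For hil-3 (7.80 to 13.1, and 14.0 without both shallowest) and his-24 (-16.4 to -7.84, and -5.97) the direction held in each of 8 alternatives. Leaving out libraries could not turn that of hil-3, because its shares did not overlap between the groups. The shares of both genes are parts of the same total. The difference in class total, in CPM, ran from 141.7 to 198.1 for H3.3, 202.8 to 503.6 for the 4 chosen linker genes and -27.6 to 13.8 for H2A.Z. The labels state no pairing, but the library names run in consecutive couples of 1 control and 1 CHE-1 library, which carry the same number here. Deviations from the group means correlated at 0.0878, -0.00083 and 0.0553 within the couples, against -0.0931 to 0.0403 between other control and CHE-1 libraries. Of 6 libraries, 4 correlated best with their own partner. These values cannot decide whether the couples share a source. With these couples as a replicate block, a fit added after seeing the data, 364 genes were higher and 205 lower. In that fit 2 of the genes described here were called, his-24 (log2 fold change 0.85, adjusted p = 0.0114 in edgeR) and hil-3 (1.98, adjusted p = 0.00109), and hil-4 turned to -0.54. At 0 counts, a level under 0.126 (control library 2) or 0.136 CPM (CHE-1 library 1) would not be detectable, by counting error only. Higher levels may be missed too. Both his-74 and hil-4 were at 0 in these libraries, but at 18.7 and 29.1 CPM in CHE-1 library 2.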
